A study of Mus musculus with 6 samples.

Results

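Store-operated calcium entry and mitochondrial calcium uptake were examined in mouse ovaries through 9 genes. They encode the endoplasmic reticulum sensors STIM1 and STIM2, the plasma membrane channel subunits ORAI1, ORAI2 and ORAI3, the mitochondrial uniporter pore MCU, its regulators MCUB and MICU2, and the mitochondrial exchanger SLC8B1. All 9 were found by gene symbol among the 56980 genes of the deposited table, and all 9 passed the filter on low counts. Ovaries came from ICR mice given daily intraperitoneal injections over 7 days. The FNZ group (replicates 2, 3 and 5) received FNZ, a compound that the labels name only by these letters, at 30 mg/kg per day. The control group (replicates 2, 3 and 4) received the injection solvent, and FNZ itself was dissolved in a mix of polyethylene glycol (50%) and saline. The title of the study names blockade of T-type calcium channels. The labels give neither age nor genotype. They also do not say whether the 3 ovaries of a group came from separate mice, so p-values measure the spread between these samples.

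When calcium in the endoplasmic reticulum falls, STIM proteins cluster beneath the plasma membrane and open channels built of ORAI subunits, which refills the store. Part of the calcium released into the cytosol passes the inner mitochondrial membrane through the uniporter, a pore of MCU subunits that MICU proteins keep closed at resting calcium and that the related subunit MCUB makes less conductive. SLC8B1, also called NCLX, carries calcium back out of the matrix in exchange for sodium. In the ovary, calcium release from the reticulum takes part in the response of granulosa and luteal cells to gonadotropins. Calcium in the matrix stimulates dehydrogenases that feed the respiratory chain.

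The pore gene Mcu and its gatekeeper Micu2 had higher counts per 1000000 reads after TMM scaling (CPM) in every FNZ library than in every control library, with log2 fold changes of 0.34 and 0.27, while in TPM (transcripts per 1000000, a measure per transcript length) both overlapped between the groups. Stim1, Stim2, all Orai genes and Slc8b1 had negative log2 fold changes, of which the most negative was that of Orai2 at -0.56 ± 0.28 (SE). No member passed the test. edgeR's quasi-likelihood test called 0 of the 9 members at a Benjamini-Hochberg adjusted p under 0.05, against 0 of 17735 genes tested (0%), and the smallest adjusted p over all genes was 0.111. At an unadjusted p under 0.05 edgeR had 2 members higher and 0 lower, where 12.0% of all tested genes were higher and 11.2% lower. The fit with a correction for gene length also called 0 of the 9, against 0.00564% of genes higher and 0.00564% lower. DESeq2 called 0 of the 9, while it called 4.54% of the genes with an adjusted p higher and 5.57% lower. In the authors' deposited table, 0 of the 9 had an adjusted p under 0.05, against 10% of the 14821 genes listed there with an adjusted p below 1. CPM did not overlap between the groups in 2 members that were higher and 1 that was lower, and over all tested genes this held for 15.8% and 13.8%, together 29.6%. The median log2 fold change of the members was -0.06, against 0.01 for all tested genes.

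**Figure D1:**
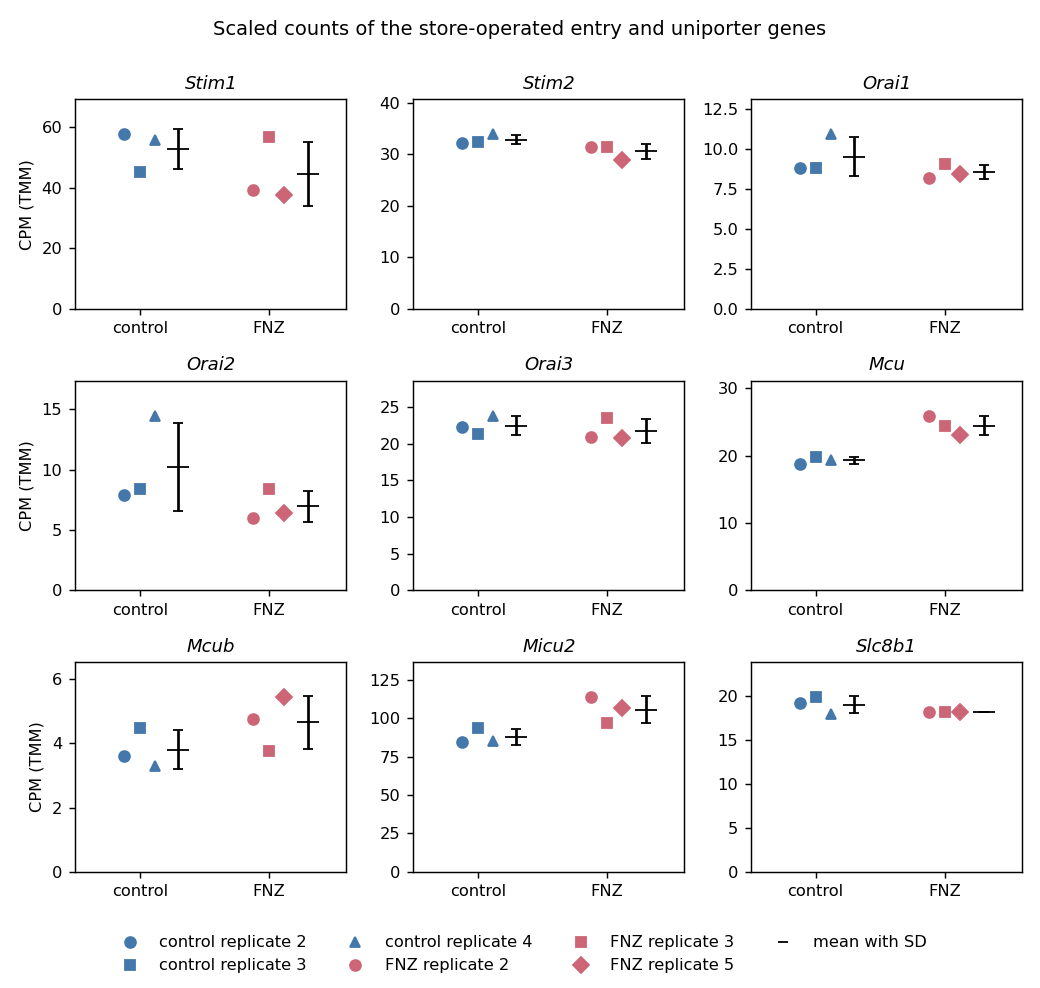
CPM (TMM-scaled counts per 1000000 reads, linear axes from 0) of each gene in the 3 control and 3 FNZ libraries. Points are libraries and black marks the group mean with its SD. Mcu and Micu2 show all FNZ points above all control points, and control replicate 4 stands alone in Orai2 at 14.5 CPM.

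Some facts of the libraries touch every value below. Expected counts summed to between 19333493 and 23406628 per library. Across all tested genes the log2 fold change fell with gene length (Spearman's rho = -0.42, a description, since genes are not independent). FNZ replicate 3 stood apart from the other FNZ libraries: the deviation of its genes from their means correlated with length at rho = 0.08, against -0.46 and -0.30 in FNZ replicates 2 and 5 and 0.26 to 0.32 in the controls. Granulosa markers summed to between 4065 and 4886 TPM in the 6 libraries, while other tissue lists varied more. FNZ replicate 3 had the highest sum of smooth muscle markers (2790 TPM, against 1107 to 1611 in the other 5) and of theca and luteal markers (4727 against 3006 to 3527). Blood markers ranged from 645 to 3787 TPM and fat markers from 52.0 to 807 TPM, and none of the marker genes examined for ovarian cell types was at 0 throughout. In whole ovaries, fewer cells of a type and less RNA per cell cannot be told apart.

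On the per-length TPM scale Micu2 was the most abundant member, at 60.9 ± 3.16 TPM in control ovaries (SD, n = 3 here and below). Stim1 followed at 28.3 ± 3.03 TPM, Orai3 at 18.4 ± 1.22, Stim2 at 14.7 ± 0.381 and Mcu at 11.0 ± 0.355. The control libraries of each of these genes lay entirely above those of the next. Slc8b1 at 10.6 ± 0.450 TPM and Orai1 at 10.6 ± 1.45 TPM overlapped with Mcu and with each other, and Mcub at 6.02 ± 0.830 TPM overlapped with Orai2 at 4.66 ± 1.88 TPM. Across all 6 libraries Micu2 alone kept apart from its neighbour in this order.

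Stim2, Orai1, Orai2 and Slc8b1 lie on chromosome 5 in GENCODE M21, Stim1 and Orai3 on chromosome 7, Mcub on chromosome 3, Mcu on chromosome 10 and Micu2 on chromosome 14.

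Stim1 (ENSMUSG00000030987), the main sensor of stored calcium, measured 57.6, 45.2 and 55.7 CPM in control replicates 2, 3 and 4. In FNZ replicates 2, 3 and 5 it measured 39.2, 56.5 and 37.5 CPM. FNZ replicates 2 and 5 were thus below all controls, while FNZ replicate 3 lay among the highest, and the groups overlapped. Its change on the log2 scale was -0.25 ± 0.18, with a 95% interval from -0.66 to 0.17 (edgeR adjusted p = 0.429). Without FNZ replicate 3 it was -0.46 ± 0.13 (edgeR adjusted p = 0.0505), without FNZ replicate 2 or 5 it was -0.16 or -0.14, and it was -0.11 in the length-corrected fit. Stim1 is a long gene of 4362 bases in the deposited table, longer than the median of 2705 bases over all tested genes.

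Endothelial and blood markers, chosen among the marker lists after their values were seen, were low in the libraries with little Stim1. The summed level of 5 endothelial genes (Pecam1, Cdh5, Kdr, Tek and Vwf) was 113, 86.5 and 134 TPM in control replicates 2, 3 and 4. It was 66.0, 110 and 66.3 TPM in FNZ replicates 2, 3 and 5, so FNZ replicate 3 stayed below control replicates 2 and 4. Stim1 itself measured 29.8, 24.8 and 30.2 TPM and then 13.4, 31.6 and 14.8 TPM in the same order. The libraries with little Stim1, FNZ replicates 2 and 5, were also those with the lowest endothelial sum, and Cdh5, the cadherin of endothelial junctions, measured 22.3 and 20.7 TPM in them, 31.1 TPM in FNZ replicate 3 and 24.2 to 37.0 TPM in the controls. Blood markers, 5 genes of haemoglobin and haem synthesis, summed to 2061, 1989 and 3735 TPM in the controls and 1115, 3787 and 645 TPM with FNZ. Like Stim1, the blood markers were highest in FNZ replicate 3 and lowest in FNZ replicates 2 and 5. None of the 10 genes was at 0 throughout. The part of these cells in the Stim1 values was not tested, and neither was that of gene length.

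Stim2 (ENSMUSG00000039156), a sensor that responds to smaller losses of stored calcium, varied less. It measured 32.2, 32.4 and 33.9 CPM in the controls and 31.5, 31.4 and 28.8 CPM in FNZ replicates 2, 3 and 5. Every FNZ library was below every control library, by a small margin. The fitted log2 change was -0.10 ± 0.10, with an interval from -0.33 to 0.13 (edgeR adjusted p = 0.556), and it turned to 0.075 with the correction for gene length, Stim2 being 4892 bases long. With 1 library left out it lay between -0.12 and -0.064. Stim1 made up 65.7% ± 2.51 of the summed STIM TPM in control and 59.8% ± 11.3 in FNZ ovaries, with single FNZ libraries at 50.8%, 72.5% and 56.1%, on either side of the control range.

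Orai1 (ENSMUSG00000049686), the subunit of the classical calcium release-activated channel, measured 8.80, 8.82 and 10.9 CPM in control and 8.16, 9.02 and 8.41 CPM in FNZ ovaries. The FNZ values reached into the control range, and control replicate 4 was the highest of all. Its log2 fold change was -0.16 ± 0.17, with an interval from -0.56 to 0.24 (edgeR adjusted p = 0.615), and it was -0.049 without control replicate 4. The predicted gene Gm2479 has exons opposite those of Orai1 in GENCODE M21, and no label says whether reads were counted by strand, so Orai1 counts are uncertain to that extent. Orai3 (ENSMUSG00000043964), a subunit found in mammals that also forms channels gated by arachidonic acid, measured 22.4, 21.3 and 23.8 CPM and then 20.9, 23.6 and 20.8 CPM. Its groups overlapped, with a log2 fold change of -0.05 ± 0.12 and an interval from -0.32 to 0.22 (edgeR adjusted p = 0.829), and from -0.11 to -0.0087 with 1 library left out.

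Orai2 (ENSMUSG00000039747), a subunit that dampens store-operated current when it joins ORAI1 in mouse immune cells, had the most negative log2 fold change of the 9. It measured 7.87, 8.42 and 14.5 CPM in control replicates 2, 3 and 4 and 6.02, 8.39 and 6.42 CPM in FNZ replicates 2, 3 and 5. Control replicate 4 stood far above the other 5 libraries, and FNZ replicate 3 was at the level of control replicate 3. The log2 fold change of -0.56 ± 0.28 had an interval from -1.21 to 0.09 (edgeR adjusted p = 0.273). It was -0.44 with the correction for gene length and -0.23 ± 0.23 without control replicate 4. That library also had the highest sums of several marker lists, chosen here after their values were seen. Oviduct cilia markers summed to 40.3 TPM in it, against 4.00 to 5.97 TPM in the other controls and 4.24 to 18.1 TPM with FNZ, and surface epithelium markers summed to 125.2 TPM against 48.9 to 70.0 TPM and 30.4 to 52.7 TPM. Fat markers were also highest there, at 807 TPM, followed by FNZ replicate 3 at 647 TPM. Macrophage and lymphocyte markers were instead highest in control replicate 2, at 302 and 12.3 TPM, against 290 and 10.3 TPM in control replicate 4. None of the 4 ciliary, 5 epithelial and 4 fat genes was at 0 throughout. Their part in the Orai2 values was not tested.

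The upstream sequence of Orai2 is shown because this member had the most negative log2 fold change. It holds the E-box CACGTG, read by basic helix-loop-helix factors, in 2 places, marked in capitals. The 250 bases before the annotated start lie at chr5:136170657-136170906 on the minus strand (RefSeq, GRCm38.p6). GENCODE M21 starts Orai2 at 136170713, inside this window. By that annotation the E-box nearer the printed end lies within the transcript, and only the other is upstream.
Orai2: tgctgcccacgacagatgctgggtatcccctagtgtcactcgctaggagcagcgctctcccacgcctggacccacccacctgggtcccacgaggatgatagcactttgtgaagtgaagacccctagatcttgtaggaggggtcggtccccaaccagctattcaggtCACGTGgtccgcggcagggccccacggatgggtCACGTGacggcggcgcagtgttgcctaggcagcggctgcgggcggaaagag

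Counting both strands, CACGTG was present in 6.02% of 32851 mouse promoter windows of this length. A RefSeq window was matched for 8 of the 9 members (all but Slc8b1), and Orai2 was the only one of them with this motif. The NFAT core GGAAA occurred in 4 of the 8 (Mcub, Micu2, Orai2 and Orai3) and in 55.6% of all windows. The motifs were chosen after the sequences were seen, and a match describes letters only.

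Within the Orai family the share of Orai3 was larger and that of Orai2 smaller with FNZ. The shares are parts of the same sum, so these are not separate results. Orai3 itself was not higher with FNZ, at 18.4 ± 1.22 TPM in control and 15.1 ± 2.78 TPM in FNZ ovaries. Shares within other gene families were not computed for comparison. Orai3 took 55.0% ± 3.65 of summed Orai TPM in control and 59.4% ± 0.923 in FNZ ovaries, and every FNZ library (60.4%, 59.1% and 58.6%) exceeded every control library (57.5%, 56.7% and 50.9%). Orai2 took 13.5% ± 3.51 and 9.14% ± 0.919, with control replicate 4 at 17.6% and the FNZ libraries between 8.55% and 10.2%, below all controls. Orai1 held 31.4% ± 0.344 and 31.5% ± 1.07. Where the shares were computed from CPM per kilobase of the deposited gene length, Orai3 still separated the groups and Orai2 did not. Without control replicate 4 the control shares were 57.1% for Orai3 and 11.5% for Orai2. Orai2 is 3990 bases long in the deposited table, against 1996 for Orai3 and 1875 for Orai1. The part of gene length in the shares was not tested, and no test was made of the shares themselves.

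**Figure D2:**
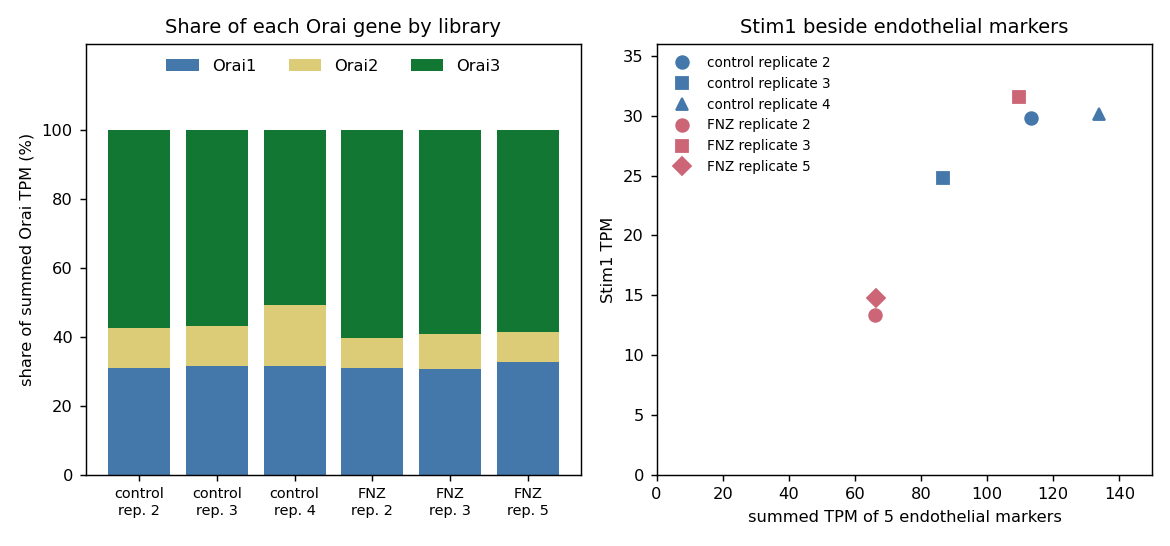
Left, stacked bars of the share of each Orai gene in the summed Orai TPM (%) of each library. Right, Stim1 TPM against the summed TPM of 5 endothelial markers, 1 point per library. Orai2 takes its largest share, 17.6%, in control replicate 4, and FNZ replicates 2 and 5 lie lowest on both axes of the right plot.

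Mcu (ENSMUSG00000009647), the pore of the uniporter, measured 18.8, 19.9 and 19.28 CPM in control replicates 2, 3 and 4. In FNZ replicates 2, 3 and 5 it measured 25.9, 24.4 and 23.1 CPM. All FNZ libraries, FNZ replicate 3 included, lay above all controls. Its log2 fold change was 0.34 ± 0.11, with an interval from 0.08 to 0.60 (edgeR adjusted p = 0.146), so it did not pass the test over all genes. It was 0.37 with the correction for gene length, 0.32 with DESeq2 (adjusted p = 0.121), and between 0.31 and 0.38 with 1 library left out. In the authors' deposited table the log2 fold change of Mcu was 0.32 with an adjusted p of 0.122.

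Micu2 (ENSMUSG00000021973), which helps to keep the pore shut at low calcium, measured 84.3, 93.6 and 85.4 CPM in control and 113.5, 96.5 and 106.7 CPM in FNZ ovaries. FNZ replicate 3 was the lowest of the FNZ libraries and lay just above control replicate 3. The log2 fold change was 0.27 ± 0.10, with an interval from 0.04 to 0.50 (edgeR adjusted p = 0.177). Without FNZ replicate 3, Micu2 was the only member that passed, with a log2 fold change of 0.33 ± 0.09 and an edgeR adjusted p of 0.0494, in a fit that called 7.99% of all tested genes higher and 9.64% lower. With that library out and the correction for gene length the adjusted p was 0.218.

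TPM did not show the same separation of Mcu and Micu2. Mcu measured 10.6, 11.4 and 11.0 TPM in control and 11.0, 13.1 and 11.1 TPM in FNZ ovaries, and Micu2 58.0, 64.2 and 60.4 TPM and then 60.1, 63.2 and 61.9 TPM. Both overlapped between groups. With limma on log2(TPM + 1) the log2 fold change was 0.077 for Mcu and 0.021 for Micu2 (limma adjusted p = 0.763 and 0.905). In that fit the median log2 fold change of all tested genes was -0.18, and the cause of this was not tested. Relative to that median Mcu stood at 0.25 and Micu2 at 0.20, Stim1 at -0.41 and Orai2 at -0.55. In TPM, 4 members (Stim2, Orai1, Orai2 and Slc8b1) were lower in every FNZ library and 0 were higher, against 25.4% and 6.14% of all tested genes, and limma called 0 of the 9.

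The upstream sequences of Mcu and Micu2 are shown because these members separated the groups in the same direction. Capitals mark the CCAAT box, read as ATTGG on the printed strand, in Mcu, and the SP1 box GGGCGG in Micu2. Neither window holds the box marked in the other. The windows are the 250 bases before the annotated starts, at chr10:59616693-59616942 for Mcu and chr14:57999263-57999512 for Micu2, both on the minus strand (RefSeq, GRCm38.p6).
Mcu: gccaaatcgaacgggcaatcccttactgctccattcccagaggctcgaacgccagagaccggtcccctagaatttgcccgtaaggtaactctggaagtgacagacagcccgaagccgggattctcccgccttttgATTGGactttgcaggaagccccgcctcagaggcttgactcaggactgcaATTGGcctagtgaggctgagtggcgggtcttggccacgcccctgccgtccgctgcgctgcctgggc
Micu2: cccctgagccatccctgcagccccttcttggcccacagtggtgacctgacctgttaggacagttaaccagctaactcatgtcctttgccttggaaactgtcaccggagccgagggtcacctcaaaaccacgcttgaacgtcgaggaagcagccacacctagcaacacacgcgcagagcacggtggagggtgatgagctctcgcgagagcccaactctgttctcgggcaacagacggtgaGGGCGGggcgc

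On both strands CCAAT occurred in 33.9% and GGGCGG in 32.7% of all windows, and in 5 and 6 of the 8 matched members. The CREB half-site TGACG, which occurred in 17.8% of windows, was found for Orai1, Orai2 and Stim1. TATAAA occurred in 12.4% of windows and in 0 of the 8.

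Mcub (ENSMUSG00000027994), the paralog of MCU that lowers uniporter conductance, was the least covered member, with 74 to 104 counts per library. It measured 3.62, 4.47 and 3.30 CPM in control and 4.76, 3.78 and 5.43 CPM in FNZ ovaries, with FNZ replicate 3 inside the control range. The log2 fold change of 0.29 ± 0.25 had an interval from -0.29 to 0.88 (edgeR adjusted p = 0.513), which spans both directions. Without FNZ replicate 5 it was 0.17, and with the correction for gene length 0.12. The ratio of Mcub to Mcu TPM was 0.546 ± 0.0641 in control and 0.515 ± 0.0971 in FNZ ovaries, and that of Micu2 to Mcu 5.53 ± 0.113 and 5.31 ± 0.411. Both ratios overlapped between groups, and FNZ replicate 3 had the lowest value of each, at 0.426 and 4.84.

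Slc8b1 (ENSMUSG00000032754), the exchanger that returns calcium from the matrix, measured 19.2, 19.9 and 18.0 CPM in control and 18.2, 18.2 and 18.2 CPM in FNZ ovaries. The FNZ libraries were almost identical and lay inside the control range. The log2 fold change was -0.06 ± 0.12, with an interval from -0.33 to 0.20 (edgeR adjusted p = 0.768), and from -0.11 to -0.033 with 1 library left out. In TPM it measured 10.6 ± 0.450 and 8.70 ± 0.9496, lower in every FNZ library.

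**Figure D3:**
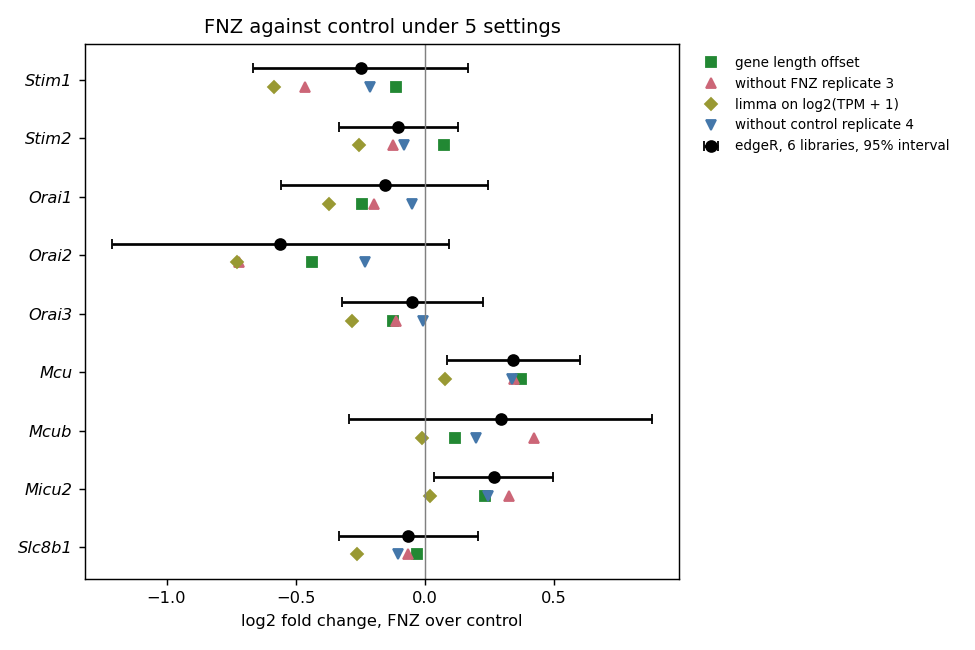
Log2 fold change (FNZ over control) of each gene, as the edgeR estimate with its 95% interval in black and as estimates under 4 other settings in colour. The intervals of Mcu and Micu2 lie above 0, and the other 7 include 0. Stim1 and Orai2 shift most when FNZ replicate 3 or control replicate 4 is left out.

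Counts and TPM of the same gene also carry the length of the transcripts to which the authors' program assigned reads. Over 551 to 614 genes with a single annotated transcript per library, the ratio of count to TPM followed a straight line on gene length, with a median residual of at most 0.00866% of the ratio and an offset of 225 to 263 bases. The offset was 246 to 247 bases in the controls and 225, 259.7 and 263 bases in FNZ replicates 2, 3 and 5. Through this line each gene's ratio gives an implied mean transcript length in each library. It is an estimate of the program's isoform assignment, with no count of reads per isoform behind it, and the measure was chosen after the data were seen.

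Implied lengths of Stim1 were 3008, 2846 and 2925 bases in the controls and 3484, 2670 and 3244 bases in FNZ replicates 2, 3 and 5. The FNZ libraries with little Stim1 had the longest implied transcripts and FNZ replicate 3 the shortest, on either side of the controls. Because TPM is the divisor in this measure, a low TPM and a long implied length are not independent. GENCODE M21 lists 9 Stim1 transcripts from 483 to 4362 bases. The spread between the highest and lowest library was 0.38 on the log2 scale, and 13.1% of 12643 genes with at least 50 counts and 1 TPM in every library had a spread at least as wide. Stim2 went the other way, at 3461, 3398 and 3506 bases in control and 2922, 3787 and 3190 bases in FNZ ovaries. For both sensors the 3 controls lay close together between the extremes of the FNZ libraries.

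Orai2 differed between the groups on this measure. Its implied length was 3356, 3632 and 3321 bases in control and 3854, 3847 and 3891 bases in FNZ ovaries, near the longest of its 4 transcripts at 3990 bases. All FNZ libraries, FNZ replicate 3 included, exceeded all controls. Mcub was also longer in all FNZ libraries (1151 ± 14.7 against 1186 ± 11.5 bases) and Slc8b1 shorter (2820 ± 14.1 against 2781 ± 23.6 bases). Non-overlapping groups with FNZ longer were found in 10.5% and with FNZ shorter in 9.86% of the 12643 genes, so 2 and 1 of 9 members are near the background. Micu2 (2289 to 2326 bases) and Orai3 (1998 to 2006 bases) hardly varied between libraries. No test was made of implied lengths.

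**Figure D4:**
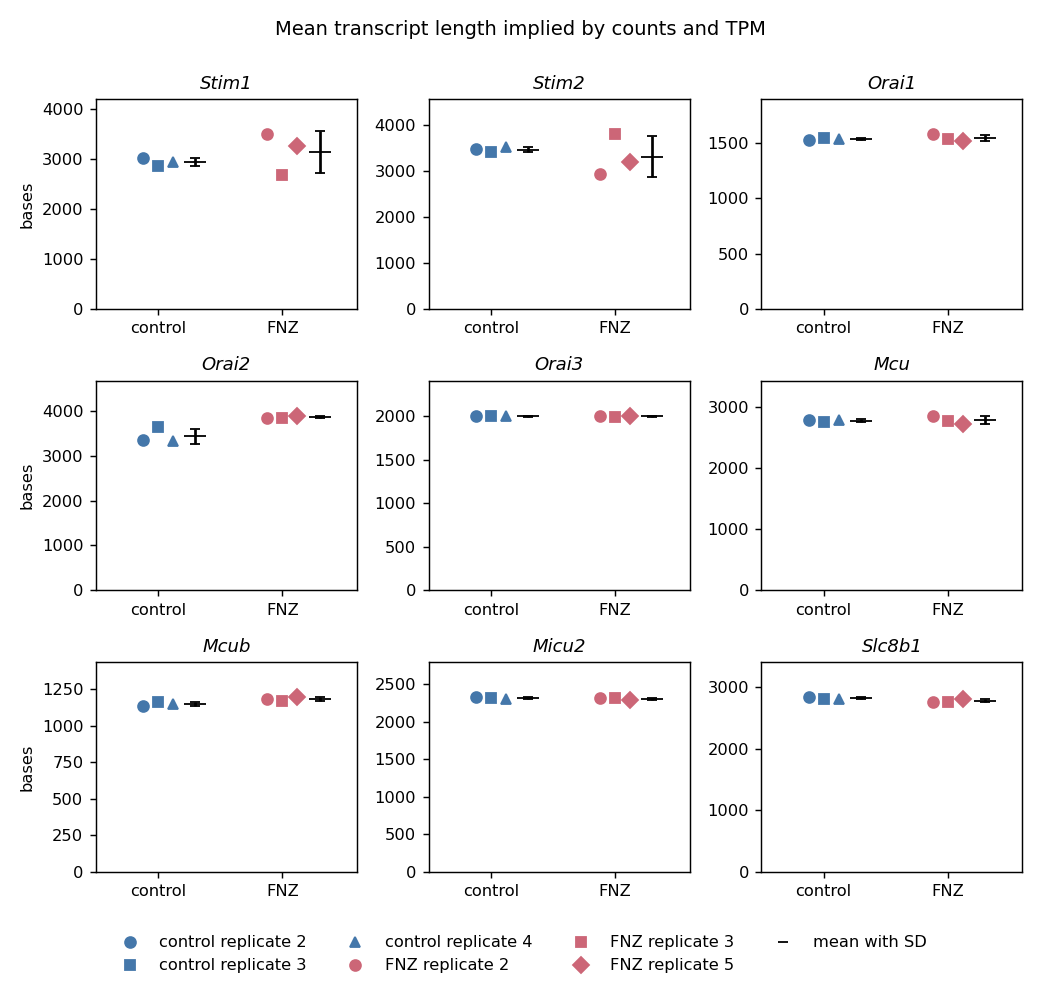
Mean transcript length (bases, linear axes from 0) implied by the ratio of count to TPM for each gene in the 3 control and 3 FNZ libraries. Points are libraries and black marks the mean with its SD. Orai2 lies at 3847 to 3891 bases with FNZ and at 3321 to 3632 bases in control, and the FNZ libraries spread widely in Stim1 and Stim2.

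Partners of the store-operated channels showed no shared direction. Of 15 listed genes 14 were tested, Adcy8 being below the filter, and 6 had positive and 8 negative log2 fold changes with a median of -0.07. edgeR called 0 of them, and 0 had an unadjusted p under 0.05, against 12.0% of all tested genes higher and 11.2% lower. Saraf, which restrains STIM1 after the store is full, had the highest mean TPM of the list. It measured 127 ± 5.88 CPM without and 137 ± 6.63 CPM with FNZ (edgeR log2 fold change 0.11 ± 0.09, adjusted p = 0.505), with 0.018 after the correction for gene length and -0.14 in limma on TPM. Esyt1, a tether of the reticulum to the plasma membrane, measured 77.6, 63.2 and 81.8 CPM in control and 39.0, 72.6 and 43.7 CPM in FNZ replicates 2, 3 and 5. Like Stim1 it was low in FNZ replicates 2 and 5 only, at -0.52 ± 0.24 on the log2 scale (edgeR adjusted p = 0.244), or -0.84 without FNZ replicate 3 (edgeR adjusted p = 0.0128). Septin4, a cytoskeletal GTPase, measured 23.6 ± 2.65 and 34.5 ± 13.7 CPM and was lowest of all in FNZ replicate 3, at 19.1 CPM (edgeR log2 fold change 0.55 ± 0.30, adjusted p = 0.310). Without that library it was 0.84 (edgeR adjusted p = 0.0127), and without FNZ replicate 5 it was 0.31. For both Esyt1 and Septin4, the fit without FNZ replicate 3 called 7.99% of all tested genes higher and 9.64% lower. Esyt1 was -0.34 without FNZ replicate 2. Exons of Gm29585 lie opposite those of Esyt1, and Gm11492 overlaps Septin4 on the same strand.

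Among 15 other genes of the uniporter and of mitochondrial calcium routes, 8 were positive and 7 negative, with a median of 0.03. Of these edgeR called 0, with 2 higher and 2 lower at an unadjusted p under 0.05, near the 12.0% and 11.2% of all tested genes. Smdt1, which encodes the EMRE subunit that ties MICU proteins to the pore, measured 20.2, 16.6 and 25.8 CPM in control and 35.6, 34.8 and 25.1 CPM in FNZ ovaries. FNZ replicate 5 fell inside the control range. Its log2 fold change was 0.61 ± 0.20 (edgeR adjusted p = 0.148), and exons of Pheta2 overlap it on the same strand, so its counts are uncertain. At 705 bases it is short, and the correction for gene length gave 0.34, or 0.16 with FNZ replicate 3 also out. Micu3, a regulator best known from brain, measured 11.6 ± 1.72 and 13.5 ± 0.170 CPM (edgeR log2 fold change 0.22 ± 0.16, adjusted p = 0.436), and limma on TPM gave -0.026. Without control replicate 2 it was 0.11. Exons of Fgf20 and Mir7666 lie opposite its own. Mcur1, an assembly factor of the uniporter, measured 47.6 ± 3.12 and 38.9 ± 8.08 CPM (edgeR log2 fold change -0.29 ± 0.16, adjusted p = 0.310), with -0.14 without FNZ replicate 5 and -0.15 in the length-corrected fit.

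The genes with the smallest p in that list were Slc8a1 and Slc8a3, of the sodium-calcium exchanger family. Slc8a1, whose product moves calcium out across the plasma membrane, measured 74.5, 76.7 and 99.4 CPM in control and 54.0, 66.3 and 62.0 CPM in FNZ ovaries. The groups did not overlap, and the log2 fold change was -0.46 ± 0.14 (edgeR adjusted p = 0.138). Slc8a1 passed in DESeq2 (adjusted p = 0.0460), which called 4.54% of genes higher and 5.57% lower. It also passed in edgeR without FNZ replicate 3 (adjusted p = 0.0478), where 7.99% of genes were called higher and 9.64% lower. It missed the threshold in the length-corrected edgeR fit that leaves out the same library (adjusted p = 0.0899). Exons of AC122399.1 and Gm11096 lie opposite those of Slc8a1. Slc8a3 was rare, at 1.196 ± 0.203 CPM in control and 0.536 ± 0.113 CPM with FNZ, also without overlap (edgeR log2 fold change -1.14 ± 0.36, adjusted p = 0.141). Vdac3, an outer membrane channel through which calcium reaches the uniporter, had the highest mean TPM of the list over the 6 libraries and measured 167 ± 27.0 and 213 ± 17.9 CPM (edgeR log2 fold change 0.35 ± 0.14, adjusted p = 0.195). It was 0.22 without control replicate 4 and 0.19 after the correction for gene length.

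At contacts between reticulum and mitochondria, where released calcium meets the uniporter, 5 of 10 genes were positive and 5 negative. The median log2 fold change was 0.0033. edgeR called 0 of them, while 2 were higher and 4 lower at an unadjusted p under 0.05, against 12.0% and 11.2% of all tested genes. In 8 of the 10 the groups did not overlap in CPM, 4 in each direction, against 15.8% of all tested genes higher and 13.8% lower. Pacs2, a sorting protein that maintains these contacts, measured 72.7, 66.1 and 74.9 CPM in control and 41.4, 52.5 and 40.4 CPM in FNZ ovaries. All FNZ libraries were below all controls, at a log2 change of -0.67 ± 0.13 (edgeR adjusted p = 0.131). DESeq2 called it lower (adjusted p = 0.00189), as did edgeR without FNZ replicate 3 (adjusted p = 0.0096), also with the correction for gene length (adjusted p = 0.0190). Over all genes DESeq2 called 4.54% higher and 5.57% lower, and edgeR without FNZ replicate 3 called 7.99% and 9.64%. Bcap31, a reticulum protein that binds the mitochondrial FIS1, measured 95.3 ± 8.89 and 137 ± 12.6 CPM, without overlap (edgeR log2 fold change 0.52 ± 0.11, adjusted p = 0.131, DESeq2 adjusted p = 0.0106). With the correction for gene length it was 0.33, and with FNZ replicate 3 also out the edgeR adjusted p was 0.166. Hspa9, the chaperone mortalin that links reticulum calcium release channels to the outer membrane channels, measured 467 ± 33.0 and 359 ± 63.0 CPM and did not overlap either (edgeR log2 fold change -0.38 ± 0.15, adjusted p = 0.188). Without FNZ replicate 2 it was -0.23, and leaving out FNZ replicate 3 gave -0.49 (edgeR adjusted p = 0.0494). With that library out and the correction for gene length, Hspa9 was at -0.43 (edgeR adjusted p = 0.169). Exons of Gm44471 lie opposite those of Pacs2.

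The gene most like each member over the 6 libraries was sought among tested genes with a mean of at least 5 TPM, by Pearson's r of log2 CPM. Stim1 was most like Ppp5c (r = 0.998), Stim2 like Tfe3 (r = 0.992), Orai3 like Parp4 (r = 0.991), Slc8b1 like Plekhf2 (r = 0.992), Mcu like Rab4b (r = 0.993), Mcub like Zar1l (r = 0.999) and Micu2 like Zc3h11a (r = 0.999). Orai1 and Orai2 shared the same nearest gene, Lbp (r = 0.994 and 0.995), which measured 81.9 CPM in control replicate 4 and 20.9 to 32.7 CPM in the other 5 libraries. With 10783 or 10784 candidates and 6 libraries such values are a description. For Micu2, 290 genes had an r above 0.95, and for Slc8b1 9.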

How the data were processed

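Poly(A) RNA of 6 mouse ovary libraries, 3 per group, was sequenced with paired ends, per the labels' protocols. The submitters' processing notes name bcl2fastq 2.20, DESeq2 1.38.3 and the build GRCm39, and no label names the aligner, the counting program or the annotation release.

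The deposited table holds the authors' expected counts per gene, of which 12.0% to 14.8% per library were not whole. TPM values, deposited beside them, sum to 1000000. The authors' fold ratio, log2 ratio, p-value and gene length complete the table. Means per group went unused. Column names matched the replicate numbers of the sample titles.

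After rounding, the estimated counts went into edgeR 4.0.16 under R 4.3.3 (TMM, filterByExpr, glmQLFit with robust = TRUE, two-sided F test, Benjamini-Hochberg over all 17735 tested genes, called at an adjusted p under 0.05). The planned tests were kept, with rounding added for this unit. CPM errors are SDs and log2 errors SEs of the fit. Alternatives were RLE and upper quartile scaling, other filters, DESeq2 1.42.0, limma 3.58.1 (voom, and a trend on log2(TPM + 1)), robust = FALSE, a loess trend on log2 gene length (span 0.3) as an offset, replicate blocks, an adjusted p under 0.1, and each library left out. The length offset without FNZ replicate 3 was added after seeing the data. The main edgeR test was tried on simulated data first, and the alternative fits were not.

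Members and gene lists were chosen with earlier results of these data known. Text names all members, the 2 genes with the smallest p and the most abundant gene of each partner list, and Saraf, Micu3, Smdt1 and Mcur1. One further gene of the plan is not reported here. Marker genes were named after their values were seen. Libraries of a group differed far beyond sampling noise, by chi-square.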

Additional observations from a re-analysis of the deposited data

How the results depend on the processing

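Over all tested genes edgeR called 0, and so it did with RLE scaling, upper quartile scaling, a stricter filter, robust = FALSE and an adjusted p under 0.1. The count was 183 of 32252 genes with no filter and 1497 of 14799 with DESeq2 (4.54% higher and 5.57% lower). It was 2 with limma voom, 1 with limma on TPM and 2 with the gene length offset. Leaving out 1 library gave 0 to 3230 calls, the highest without FNZ replicate 3 (7.99% of 18314 genes higher and 9.64% lower). With that library out and the length offset, 615 of 18314 were called. For the 9 members the count ranged from 0 to 1 with 1 library left out and was 0 in every other alternative, an adjusted p under 0.1 included. Of 14 tested partners of store-operated channels, 0 to 3 were called with 1 library left out and 2 with FNZ replicate 3 out and the length offset. Uniporter partners had 1 call of 14 with DESeq2 and 0 to 2 of 15 with 1 library left out. Of 10 contact genes, 1 was called with no filter, 4 with DESeq2, and 0 to 6 with 1 library left out. With FNZ replicate 3 out and the length offset it was 2 of 10. In each list the highest count came without FNZ replicate 3. The replicate block by title number, which compares replicates 2 and 3 alone, gave 24 calls over all genes and 0 members, and the block by library name number gave 2 and 0. Same-numbered libraries did not deviate together, with Pearson's r across genes of -0.085 and -0.135 for title numbers 2 and 3. Control replicate 4 and FNZ replicate 5, which share library name number 3, gave -0.321. This check cannot tell whether same-numbered samples share anything beyond a number.

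Directions reversed in 7 cases, and the cause was not tested. Stim2 was 0.075 with the length offset and 0.10 with it and without FNZ replicate 3. Orai3 was 0.023 with the replicate block. With limma on TPM, Mcub was -0.0099, Saraf -0.14 and Micu3 -0.026. Saraf was -0.043 with FNZ replicate 3 out and the length offset. Mcu, Micu2, Stim1, Orai1, Orai2 and Slc8b1 kept their direction in all 18 alternatives, though not always beyond the SE. In limma on TPM, Mcu was 0.077 ± 0.15 and Micu2 0.021 ± 0.092. In both replicate-block fits, 0 members had an unadjusted edgeR p under 0.05.

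From CPM per kilobase of deposited gene length, Orai1 took 26.8% (control) and 26.5% (FNZ) of the Orai sum, Orai3 59.9% and 63.4%, and Orai2 10.1% with FNZ, and the Mcub to Mcu ratio was 0.428 and 0.416. The cause of these differences from TPM was not tested. The interval of each member bounds what this depth and 3 libraries per group can show. Mcub and Orai2 have the widest intervals and also the fewest reads, but width did not follow depth throughout. Stim1, with 718 to 1353 counts, had an interval from -0.66 to 0.17. That of Orai1, with 156 to 244 counts, was narrower, from -0.56 to 0.24.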
